A study of Mus musculus with 3 samples.

Results

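Spots of regenerating mouse muscle that held capillary or stem-like endothelial transcripts were described in sections of tibialis anterior taken 2, 5 and 7 days post injury (dpi). A spot is a small barcoded area of a Visium slide whose RNA is pooled, so it can hold several cells of different types or part of one. Each spot carried a theta value for every cell type, which is the estimated fraction of its transcripts that came from that type. The authors made these estimates by BayesPrism deconvolution against a single-cell reference. The table held 27 types. A spot was a member where theta of capillary endothelial cells, or theta of stem-like endothelial cells, was 0.01 or more. There were 582 members among 2758 spots, of which 289 of 859 lay in the section at 2 dpi, 131 of 933 in the section at 5 dpi and 162 of 966 in the section at 7 dpi. All other spots of a section had both theta values under 0.01.

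The sections came from female C57BL6/J mice aged 5 months whose tibialis anterior had been injected with notexin, a snake venom phospholipase that destroys myofibers. The groups differed only in the labelled time, namely 2, 5 or 7 days after notexin, and all carried the injury. No uninjured section was analysed here. Each time point had 1 section, so time, animal and section cannot be told apart, no difference between time points was tested and no p-value is given.

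Endothelial cells line blood vessels. Capillaries are the narrowest of these, run along muscle fibers, and exchange oxygen, nutrients and cells between blood and tissue. In muscle, oxidative fibers are known to carry more capillaries than glycolytic ones, and muscle stem cells often lie close to capillaries. After injury the capillary bed is partly lost and is rebuilt alongside the fibers. Pecam1 and Cdh5, a pair of adhesion molecules that mark endothelial cells, could not be looked up because the values analysed here were given per spot and per cell type and not per gene. The names capillary and stem-like therefore rest on the deconvolution. The authors' tables of marker genes were not used here.

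The sections differed in depth. The total of unique molecular identifiers (UMIs, which count captured transcripts) was lowest at 2 dpi, with 5710385 against 10803761 and 14734531 in the later sections. The median spot held 5786, 11221 and 15135 UMIs in the same order. A share of 0.01 of all UMIs was about 58 UMIs in the median spot at 2 dpi, 112 at 5 dpi and 151 at 7 dpi. In the shallowest spot of each section this share was only 10.0, 10.9 and 10.6 UMIs. A theta of 0.01 rests on fewer UMIs than these numbers, since the authors ran the deconvolution on only part of the genes. From 568 to 739 barcodes were shared between any pair of sections. Each capture area carries the same set of barcodes, so a shared barcode marks a shared array position and not a shared spot.

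Both endothelial types were minor components of the spots at every time point. Mean theta of capillary endothelial cells was 0.00682 ± 0.00539 at 2 dpi (SD, n = 859 spots), against 0.00467 ± 0.00423 at 5 dpi (n = 933) and 0.00480 ± 0.00509 at 7 dpi (n = 966). Mean theta of stem-like endothelial cells was 0.00795 ± 0.00761, 0.00477 ± 0.00390 and 0.00535 ± 0.00488 at the same times. The section at 2 dpi thus had the highest mean for both types, and the sections at 5 and 7 dpi were close to each other. Every difference between sections was smaller than the SD over the spots of a section. That SD describes single spots and is not the error of a section mean, so the comparison does not show that the sections were alike. Among the 27 types, ordered by mean theta from the highest, the capillary type was number 21, 17 and 18 at 2, 5 and 7 dpi, and the stem-like type was number 17, 16 and 17. A lower theta can reflect fewer endothelial cells, less RNA per cell or more RNA from other cells, and these cannot be told apart here.

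Capillary theta at 5 dpi was 0.684 times its mean at 2 dpi, and at 7 dpi it was 0.703 times. For the stem-like type these ratios were 0.5997 and 0.673. When each spot was weighted by its UMIs the ratios were 0.806 and 0.740 for the capillary type and 0.697 and 0.756 for the stem-like type. When the fractions of type IIb and type IIx myonuclei were removed and the other 25 types were rescaled to sum to 1, the stem-like ratio at 5 dpi came to 0.949. All of these ratios stayed under 1, but their size depended on how the spots and types were counted.

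The distribution over spots was skewed, with a few spots well above the rest. At 2 dpi capillary theta had a median of 0.00536 and a range of 0.00112 to 0.0530. At 5 dpi the median was 0.00342 in a range of 0.0005996 to 0.0453, and at 7 dpi it was 0.00357 in a range of 0.000427 to 0.0884. Stem-like theta had a median of 0.00533 at 2 dpi, with a range of 0.000932 to 0.0867. Its median at 5 dpi was 0.00362 (range 0.000599 to 0.0412), and at 7 dpi 0.00388 (range 0.000422 to 0.0477). No spot was at 0 for either type. Spots at 0.05 or more were very rare, with 1 capillary and 1 stem-like spot at 2 dpi, none at 5 dpi and 2 capillary spots at 7 dpi. The highest capillary spot of the study, at 7 dpi, held 4878 UMIs, and the highest stem-like spot, at 2 dpi, held 2754.

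Members were selected on these theta values, so their own levels describe the selection. Capillary spots, meaning those with capillary theta of 0.01 or more, had a median capillary theta of 0.0132, 0.0144 and 0.0147 at 2, 5 and 7 dpi. Stem-like spots had a median stem-like theta of 0.0147, 0.0134 and 0.0138. In each section 73.4% to 86.8% of the capillary or stem-like spots of a section had a theta under 0.02. The lowest member, by the higher of its 2 theta values, was at 0.0100003 in the first section, 0.01008 in the next and 0.01001 in the last. The highest spot outside was at 0.00996, 0.00998 and 0.00999. Between 0.01 and 0.012 there were 68, 41 and 45 members, and between 0.008 and 0.01 there were 82, 82 and 88 other spots.

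Members covered a larger share of the section at 2 dpi than later. At 2 dpi the share was 33.6% (exact 95% Clopper-Pearson interval 30.5 to 36.9), against 14.0% (11.9 to 16.4) at 5 dpi. At 7 dpi it was 16.8% (14.5 to 19.3). The intervals reflect counting error alone, since animals were not replicated. Capillary spots numbered 154 (17.9%), 74 (7.93%) and 72 (7.45%). Stem-like spots numbered 229 (26.7%), 68 (7.29%) and 111 (11.5%). Stem-like spots thus outnumbered capillary spots at 2 and 7 dpi, and the 2 numbers were close at 5 dpi. The capillary spots held 41.0%, 27.2% and 27.2% of all capillary theta summed over the section, and the stem-like spots held 59.1%, 23.3% and 34.3% of all stem-like theta.

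Some members passed the limit for both types. At 2 dpi these were 94 spots, which were 61.0% of the capillary spots and 41.0% of the stem-like spots. At 5 dpi they were 11 spots, or 14.9% and 16.2%, and at 7 dpi 21 spots, or 29.2% and 18.9%. The product of the shares of the 2 types would give 41.1, 5.39 and 8.27 spots, so the number seen was 2.29, 2.04 and 2.54 times that product. The product takes no account of depth. At 2 dpi the spots with both types had a median of 2879 UMIs, against 6623.5 in spots with neither. The part of depth in the overlap was not tested. The remaining members were 60, 63 and 51 spots that passed for the capillary type only and 135, 57 and 90 that passed for the stem-like type only. The change with the largest count between 2 and 5 dpi was thus in stem-like spots and in spots with both types, while spots with the capillary type only stayed at 51 to 63.

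Over all spots of a section, capillary and stem-like theta varied together. Spearman's rho was 0.57 at 2 dpi (n = 859 spots), 0.46 at 5 dpi (n = 933) and 0.45 at 7 dpi (n = 966). Given the UMI count of the spot it was 0.50, 0.46 and 0.44. After rescaling without myonuclei it was 0.64, 0.80 and 0.69. All values are descriptions, because the fractions of a spot share a denominator and a depth and neighbouring spots are not independent. Capillary theta exceeded stem-like theta in 49.0%, 46.4% and 43.4% of spots, so neither type was the higher in most spots by a wide margin.

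**Figure D1:**
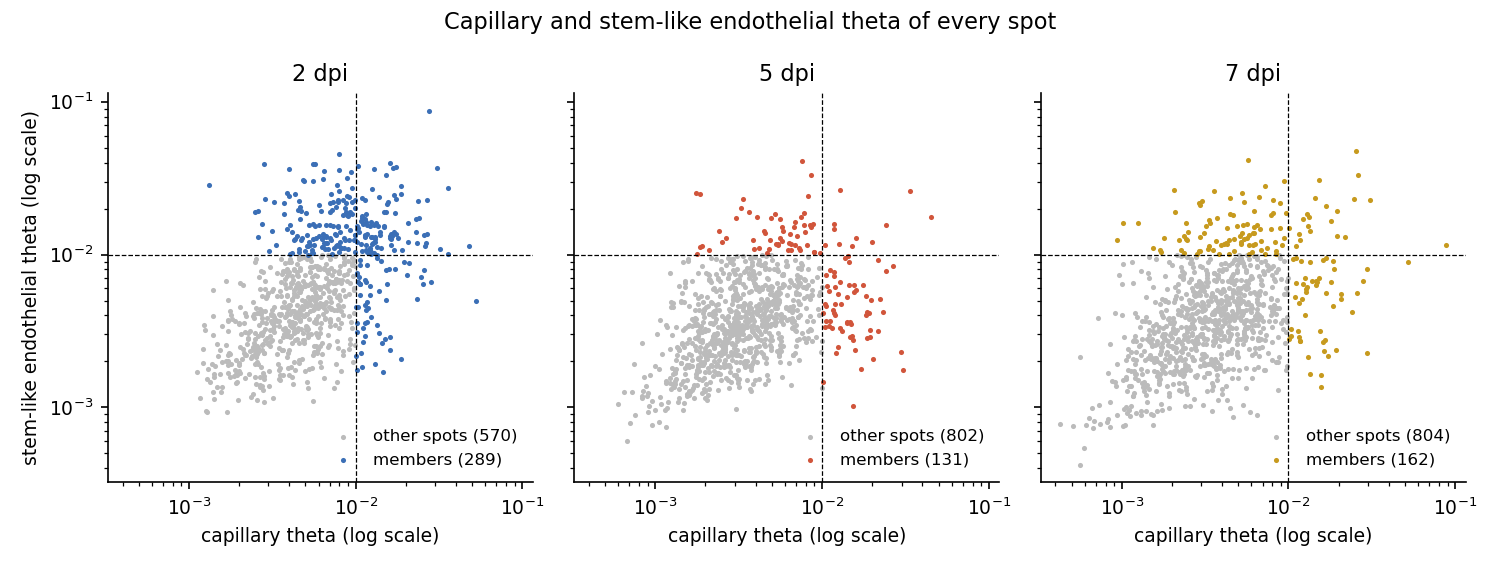
Theta of capillary endothelial cells (x axis, log scale, fraction of a spot's transcripts) against theta of stem-like endothelial cells (y axis, log scale) for each spot of the sections at 2, 5 and 7 dpi, with lines at 0.01 on both axes. Spots spread along the diagonal in each section, and the section at 2 dpi has 94 spots above both lines against 11 and 21 later.

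Membership depended on depth, and did so in a different way in each section. Spearman's rho of capillary theta with the UMI count was −0.33, 0.05 and −0.12 in the order of time. Stem-like theta had −0.42, −0.03 and −0.14. At 2 dpi the share of members was 54.6% (47.1 to 62.0) among 183 spots with under 3000 UMIs, 31.4% from 3000 to under 5000, 28.2% from 5000 to under 10000 and 23.6% (17.6 to 30.5) among 178 spots from 10000 to under 20000. Shallow spots of that section were thus the ones most often selected, and 34.6% of its members had under 3000 UMIs.

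At 5 dpi the order was the opposite over most of the range. The share of members was 10.5% under 3000 UMIs, 0 of 68 spots from 3000 to under 5000, then 6.27%, 19.7% and 21.7% in the 3 deeper ranges. A limit of 3 counts of the total allows a share of up to 4.41% for the range with no member, and the exact interval reached 5.28%. At 7 dpi the share was 12 of 60 spots under 3000 UMIs, 34.0% from 3000 to under 5000 (16 of 47 spots), 11.7% from 5000 to under 10000, 16.1% from 10000 to under 20000 and 17.4% at 20000 or more. No single trend with depth held for the 3 sections.

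At matched depth the order of the sections depended on the type and the range. From 5000 to under 10000 UMIs, members made up 28.2% (305 spots in all), 6.27% (255) and 11.7% (163) in the order of time. From 10000 to under 20000 UMIs they were 23.6% of 178, 19.7% of 451 and 16.1% of 461. In that deeper range the capillary spots were 12.9% (8.37 to 18.8), 11.1% (8.34 to 14.4) and 7.81% (5.53 to 10.6), and the stem-like spots were 11.2% (7.00 to 16.8), 9.76% (7.18 to 12.9) and 9.33% (6.83 to 12.4). Those intervals cover the counting of spots only. Over all spots with at least 3000 UMIs, members were 28.0%, 14.4% and 16.6%. Spots could not be thinned to a common depth, since gene counts were not analysed here.

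**Figure D2:**
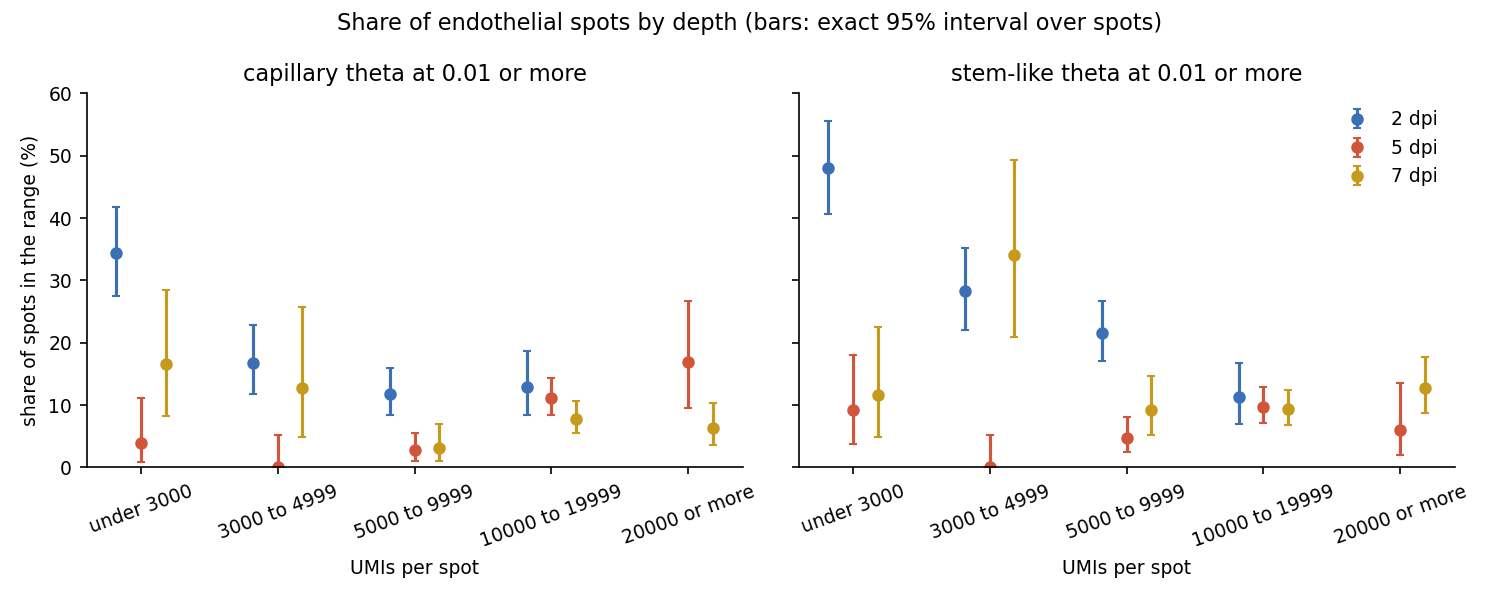
Share of spots (y axis, percent) with capillary theta or with stem-like theta of 0.01 or more in fixed ranges of UMI count (x axis), one panel per type with the sections at 2, 5 and 7 dpi, for ranges with at least 20 spots. Bars are exact 95% intervals for counting error only, and the 2 dpi shares are highest under 3000 UMIs, at 34.4% for the capillary and 48.1% for the stem-like type.

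Members differed from the other spots of their section in measures that the deconvolution did not use. Mitochondrial and ribosomal protein genes had been left out of the reference, so their percentages of UMIs did not enter the choice of members. At 2 dpi the median mitochondrial percent was 15.1 in members (quartiles 11.4 and 24.97) and 32.5 in the other spots (23.6 and 37.2). The median ribosomal protein percent was 8.13 in members (6.33 and 9.51) and 4.77 in the other spots (3.84 and 6.88). Members at 2 dpi were thus low in mitochondrial and high in ribosomal protein transcripts, although the quartile ranges of both measures overlapped between members and other spots.

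At 5 and 7 dpi these differences had the other sign. The median mitochondrial percent was 33.3 in members and 22.8 in other spots at 5 dpi, and 23.7 and 16.5 at 7 dpi. The median ribosomal protein percent was 5.22 in members and 6.67 in other spots at 5 dpi, and 6.60 and 8.01 at 7 dpi. Depth moved with this pattern. Median UMIs were 4614 in members and 6624 in other spots at 2 dpi, 15087 and 10490.5 at 5 dpi, and 15998.5 and 14994.5 at 7 dpi. Among spots with 5000 to under 10000 UMIs the mitochondrial percent of members was lower than that of the other spots in all 3 sections, with 14.7 against 33.7 at 2 dpi, 17.1 against 23.7 at 5 dpi and 15.8 against 17.8 at 7 dpi. The ribosomal protein percent of members was the higher one there in each section, with 8.49 against 4.69, 8.56 against 6.49 and 8.26 against 7.29. Only 16 members at 5 dpi and 19 at 7 dpi lay in that range. The other control for depth gave other signs at the later times. Averaged within 5 groups of spots by UMI count, the ratio of members to other spots was 0.609, 1.34 and 1.32 for the mitochondrial percent and 1.53, 0.953 and 0.860 for the ribosomal protein percent, in the order of time. At 5 dpi the groups differed in direction. The mitochondrial percent there was 12.2 in members against 19.3 in other spots of the shallowest group, and 34.9 against 13.5 in the deepest. The ribosomal protein percent was 9.13 against 6.73 and 5.02 against 9.94. In the deepest group at 2 dpi the mitochondrial percent was 34.6 against 34.1.

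Hemoglobin transcripts, which come from red blood cells, were given as the percent of UMIs pooled over the spots. Members held 0.0281% at 2 dpi against 0.0275% in the other spots, a ratio of 1.02. That ratio was 0.339 among spots with 5000 to under 10000 UMIs and 1.53 averaged within the 5 groups by UMI count, so its direction at 2 dpi depended on the handling of depth. At 5 dpi the percentages were 0.199 and 0.109, and at 7 dpi 0.167 and 0.1195. The share of spots with any hemoglobin UMI was 29.8% in members and 26.1% in others at 2 dpi, 90.1% and 84.8% at 5 dpi, and 94.4% and 91.0% at 7 dpi. The ratio of members to other spots was 1.82 at 5 dpi and 1.40 at 7 dpi, and it was 1.21 and 1.47 among spots with 5000 to under 10000 UMIs. The excess at 7 dpi was not found in every kind of member. Spots with the capillary type only held 0.269% and spots with both 0.266%. The 90 spots with the stem-like type only held 0.0957%, below the 0.1195% of the other spots. At 5 dpi the percentages were 0.227, 0.152 and 0.169 in the same order, each above the 0.109 of the other spots.

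**Figure D3:**
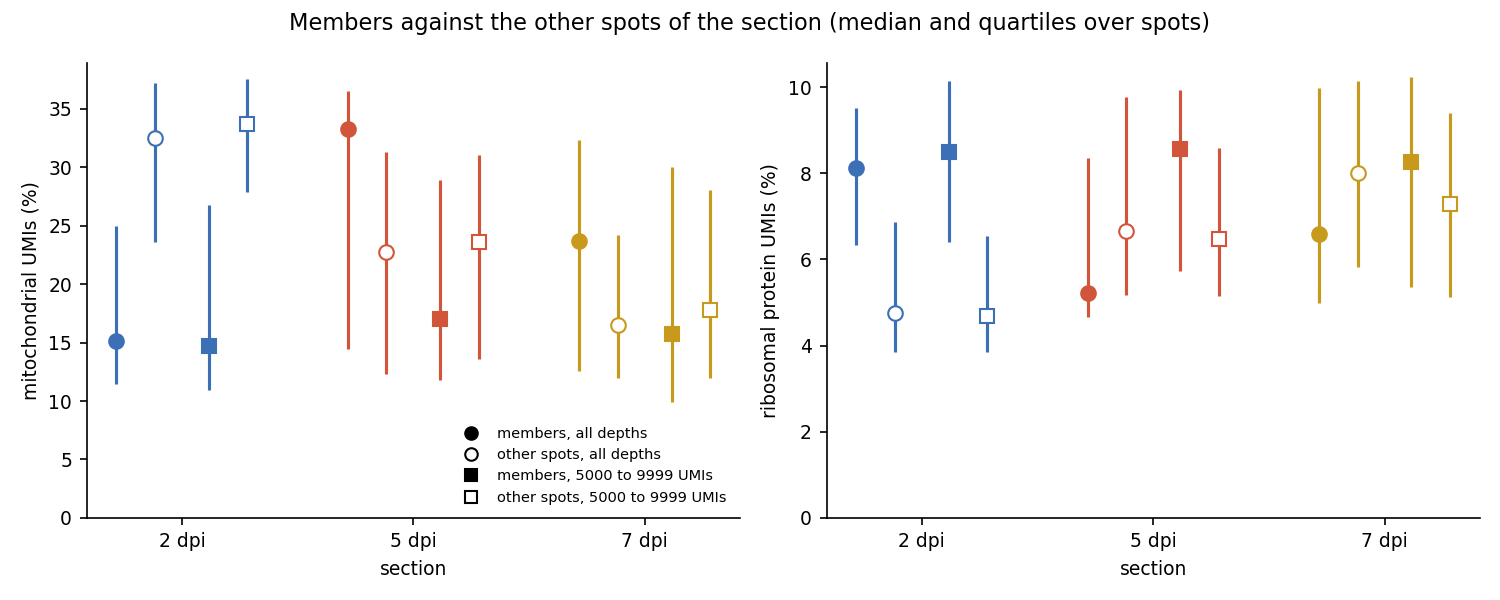
Median mitochondrial percent (left) and ribosomal protein percent (right) of UMIs in member spots (filled) and the other spots (open) of each section, with the quartiles as bars, over all depths (circles) and from 5000 to under 10000 UMIs (squares). Over all depths the mitochondrial percent of members is below that of the other spots at 2 dpi, 15.1 against 32.5, and above it at 5 and 7 dpi, and in the range of 5000 to under 10000 UMIs it is below in each section.

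Members of different kinds accounted for different parts of these values. At 2 dpi the 60 spots that passed only for the capillary type resembled the unselected spots in mitochondrial percent, with a median of 34.0 against 32.5, and had a median of 8184 UMIs. The 135 spots that passed only for the stem-like type had a mitochondrial percent of 13.8 and 5161 UMIs. The 94 spots with both types had 14.0 and 2879. The low mitochondrial percent of members at 2 dpi was thus found in spots with the stem-like type, with or without the capillary type. At 5 dpi the mitochondrial percent was 34.9 in spots with the capillary type only, 26.7 with the stem-like type only and 34.2 with both, against 22.8 in unselected spots. At 7 dpi it was 28.6, 16.5 and 25.7, against 16.5.

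The remaining cell types came from the same deconvolution as the members, so their fractions are not independent of the choice. They are given to show what the members held besides endothelial transcripts. At 2 dpi the spots with the capillary type only had a median theta of 0.591 for type IIb myonuclei, the nuclei of fast glycolytic fibers, of 0.0123 for pooled macrophages and of 0.0118 for monocytes, pooled over the 3 types Cxcl10+, inflammatory and patrolling. The spots with the stem-like type only had 0.386, 0.0608 and 0.187, and the spots with both had 0.395, 0.0668 and 0.169. The unselected spots had 0.786, 0.0136 and 0.0121. Monocyte and macrophage fractions in members at 2 dpi were thus high where the stem-like type was present.

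Type IIx myonuclei, the nuclei of fast fibers that are less glycolytic than type IIb, went with the members at 5 and 7 dpi. At 5 dpi the median theta of type IIx myonuclei was 0.247 with the capillary type only, 0.176 with the stem-like type only, 0.281 with both and 0.0392 in unselected spots. At 7 dpi it was 0.155, 0.0800, 0.157 and 0.0299. Each kind of member was therefore above the unselected spots at both times. Fusing myocytes, the cells that form new fibers, went differently between the types. Their median theta at 5 dpi was 0.0216 with the capillary type only, 0.107 with the stem-like type only, 0.0126 with both and 0.0828 in unselected spots. At 7 dpi it was 0.0298, 0.158, 0.0295 and 0.0960.

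**Figure D4:**
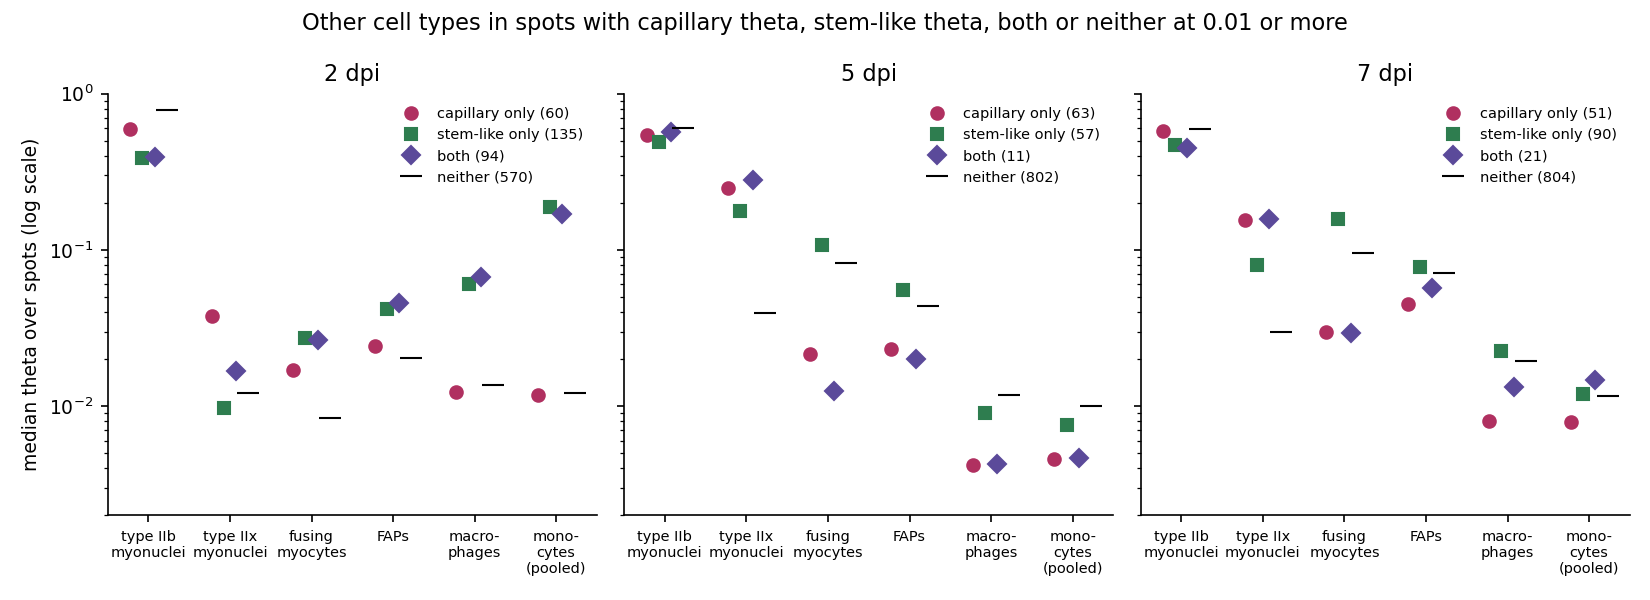
Median theta (y axis, log scale) of type IIb and IIx myonuclei, fusing myocytes, fibro-adipogenic progenitors, pooled macrophages and pooled monocytes in spots that passed 0.01 for the capillary type only, the stem-like type only, both or neither, at 2, 5 and 7 dpi. Type IIx myonuclei are at 0.155 or more at 5 and 7 dpi in the spots with the capillary type, and pooled monocytes are at 0.169 or more at 2 dpi in the spots with the stem-like type.

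At 5 and 7 dpi the same relation appeared when spots were first divided by type IIx theta, which uses the same theta values again. At 5 dpi capillary spots were 4.25% (2.28 to 7.16) of 306 spots with type IIx theta under 0.01, 2.07% of 241 spots from 0.01 to under 0.1, and 14.5% (11.2 to 18.4) of 386 spots at 0.1 or more. At 7 dpi these shares were 2.33% (0.943 to 4.75), 4.70% and 15.8% (11.9 to 20.4). Stem-like spots were 1.96%, 7.05% and 11.7% at 5 dpi and 5.33%, 12.2% and 16.8% at 7 dpi. At 2 dpi stem-like spots were 25.9%, 33.9% and 11.8%, and thus fewest at the highest type IIx theta. Capillary spots at 2 dpi were 12.1%, 22.9% and 21.5%. Median UMIs of these divisions at 2 dpi were 6251, 3771.5 and 8746.5. Median UMIs in the lowest and the highest of these divisions were 11068 and 13160.5 at 5 dpi and 16640.5 and 15305.5 at 7 dpi. Spearman's rho of type IIx theta with capillary theta was 0.18, 0.36 and 0.33 at 2, 5 and 7 dpi, and with stem-like theta −0.02, 0.32 and 0.29. Type IIb theta gave −0.45, −0.14 and −0.13 with the capillary type and −0.72, −0.24 and −0.37 with the stem-like type. The 2 kinds of myonuclei thus stood on opposite sides of 0 at 5 and 7 dpi.

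Myonuclei as a whole, with both kinds summed, had a rho with capillary theta of −0.41, 0.07 and 0.04 in the order of time. With stem-like theta the values were −0.76, −0.12 and −0.23. The fraction of myonuclei is large, so a spot with more of it has less room for every other type. Each correlation with another partner was therefore also formed after rescaling without myonuclei.

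With fusing myocytes, capillary theta had a rho of 0.30, −0.12 and −0.16 at 2, 5 and 7 dpi, which became −0.10, −0.65 and −0.52 after rescaling. Stem-like theta had 0.56, 0.07 and 0.12, which became −0.16, −0.61 and −0.42. All rescaled values with fusing myocytes were under 0, including those that were above 0 before. Among the 25 rescaled types, fusing myocytes had the highest mean theta at 5 dpi (0.115) and 7 dpi (0.122). After rescaling, a spot with more of them thus had less room for the other types. Whether the values under 0 go beyond this was not tested.

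With fibro-adipogenic progenitors (FAPs, the mesenchymal cells that build matrix in muscle), 3 types were pooled. Capillary theta had a rho of 0.29, −0.13 and −0.05, and of 0.32, −0.08 and 0.04 after rescaling. Stem-like theta had 0.55, 0.06 and 0.16, and 0.17, −0.07 and −0.0089 after rescaling. Pooled macrophages, which clear debris and steer repair, gave 0.37, −0.09 and −0.08 with capillary theta, and −0.17, −0.36 and −0.30 after rescaling. With stem-like theta they gave 0.68, 0.08 and 0.13, and −0.11, −0.36 and −0.30 after rescaling.

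Of the 18 correlations of both types with fusing myocytes, FAPs and macrophages in the 3 sections, 12 were above 0 as deposited and 3 after rescaling. Stem-like theta gave 9 of 9 above 0 as deposited and 1 of 9 after rescaling. Capillary theta gave 3 of 9 and 2 of 9. Among spots with 5000 to under 10000 UMIs all 18 were above 0. The signs thus depended on the denominator and on the depth range.

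As deposited, circulating and recruited immune cells stood closest to the stem-like type at 2 dpi. Its 3 highest correlations at that time were with T cells (rho 0.72), Cxcl10+ monocytes (0.70) and M1 macrophages (0.70), and after rescaling these were 0.14, −0.13 and −0.13. After rescaling its 3 highest were instead with capillary (0.64), artery (0.56) and vein (0.53) endothelial cells. Spots at 2 dpi were also divided by theta of patrolling monocytes. Stem-like spots were 6.73% (4.58 to 9.46) of 446 spots under 0.01 and 37.2% (30.0 to 44.9) of 172 spots from 0.01 to under 0.1. They were 56.0% (49.5 to 62.4) of 241 spots at 0.1 or more. Capillary spots were 11.9%, 19.2% and 28.2%. The divisions also differed in depth, with median UMIs of 7716, 3818 and 4547, and the part of depth in these shares was not tested.

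The closest partners of the capillary type were other endothelial cells. Its 3 highest correlations at 2 dpi were with the stem-like type, vein endothelial cells (0.51) and artery endothelial cells (0.45). At 5 dpi they were with the stem-like type, vein endothelial cells (0.36) and type IIx myonuclei (0.36), and at 7 dpi with the stem-like type, artery endothelial cells (0.36) and type IIx myonuclei (0.33). The stem-like type had the capillary type as its first partner at 5 and 7 dpi, followed by type IIx myonuclei (0.32) and artery endothelial cells (0.30) at 5 dpi, and by vein (0.30) and artery endothelial cells (0.30) at 7 dpi. After rescaling, artery theta gave 0.72, 0.77 and 0.70 with the capillary type and 0.56, 0.74 and 0.62 with the stem-like type.

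The 4 endothelial types summed to a mean theta of 0.0280, 0.0171 and 0.0194 in the sections at 2, 5 and 7 dpi. The capillary type made up 24.3%, 27.2% and 24.8% of that sum, and the stem-like type 28.3%, 27.8% and 27.6%. The makeup of the endothelial fraction thus varied less between sections than its size. In members, median artery theta was 0.00760 against 0.00450 in other spots at 2 dpi, 0.00349 against 0.00305 at 5 dpi and 0.00388 against 0.00285 at 7 dpi. Median vein theta was 0.00748 against 0.00364, 0.00275 against 0.00251 and 0.00320 against 0.00237. Smooth muscle cells, which wrap larger vessels, had a median theta of 0.00687 in members and 0.00433 in other spots at 2 dpi, with 0.00371 against 0.00360 at 5 dpi and 0.00483 against 0.00387 at 7 dpi. Over all depths members were above the other spots in each of these medians, by the widest margin at 2 dpi. Among spots with 5000 to under 10000 UMIs the ratio of members to other spots was widest at 2 dpi for vein only. There it was 1.83, 1.74 and 1.37 for vein, 1.30, 1.43 and 1.89 for artery, and 1.21, 1.49 and 1.38 for smooth muscle. Members in that range were few at the later times, with 16 at 5 dpi and 19 at 7 dpi.

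**Figure D5:**
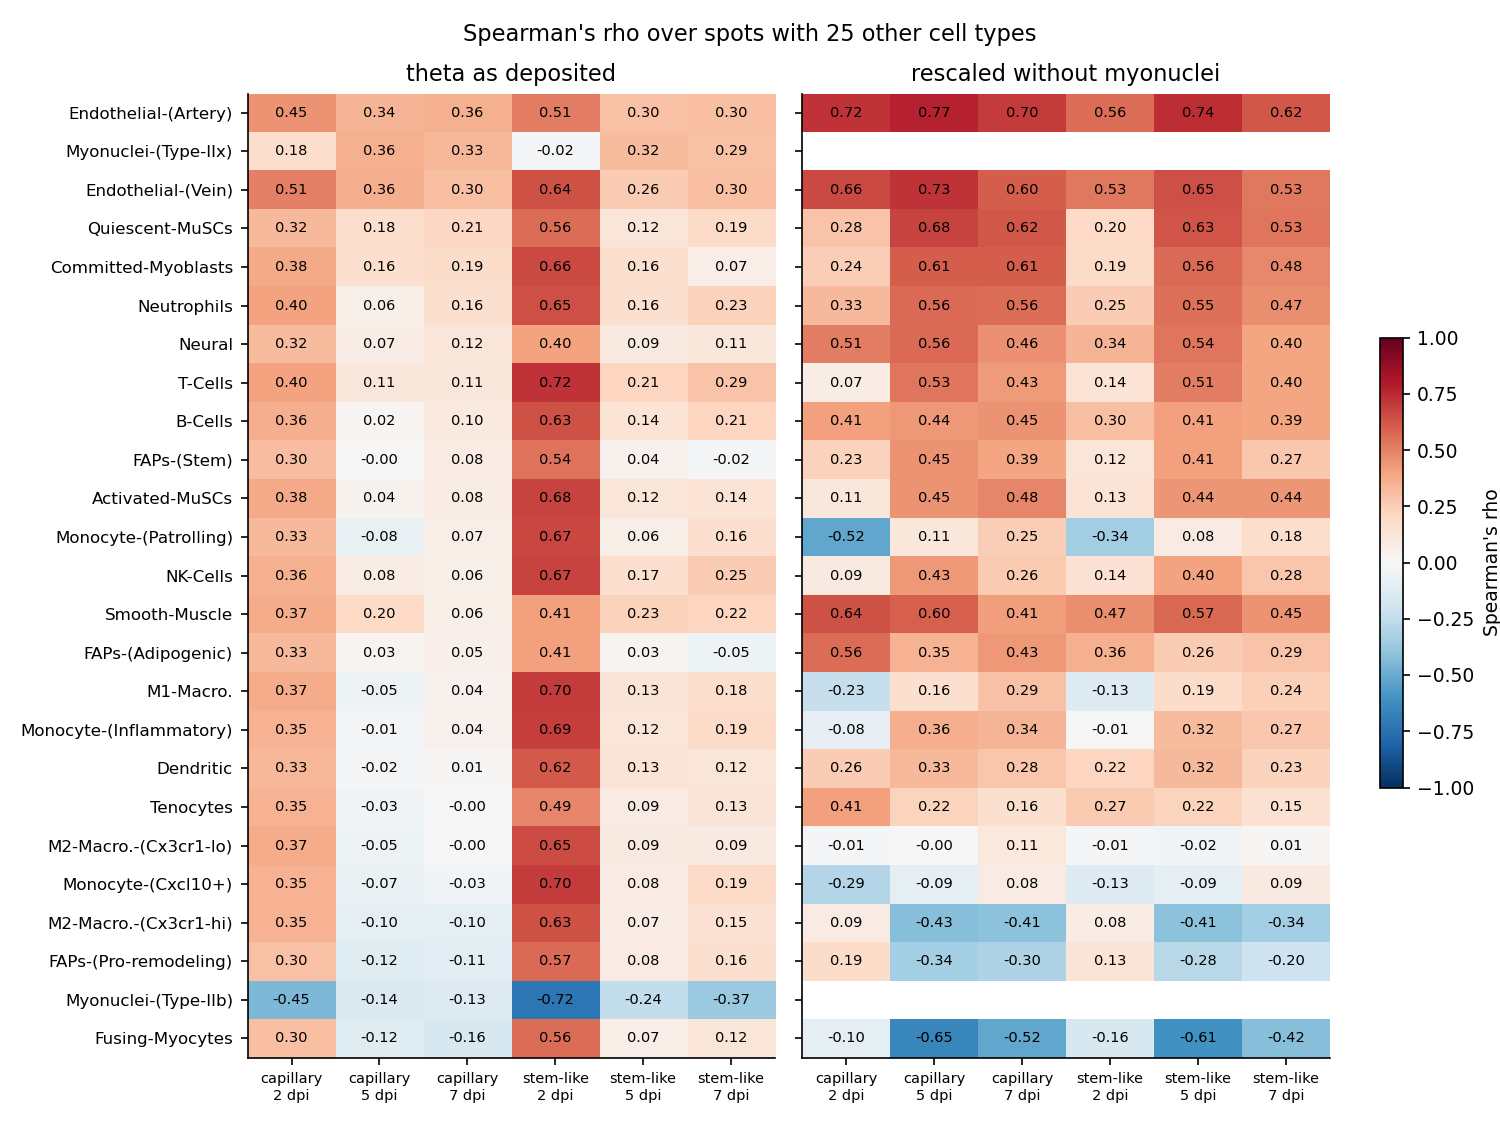
Spearman's rho over the spots of a section between each of the 2 endothelial types and 25 other types (rows), as deposited and after rescaling without myonuclei, whose own rows are then blank (colour scale, rho; columns, 2, 5 and 7 dpi). Artery and vein endothelial cells are above 0 in every cell, and fusing myocytes turn from 0.56 to −0.16 with the stem-like type at 2 dpi.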

How the data were processed

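Spots were read from 3 Visium sections, 1 per time point, and grouped by the injury day in the labels. Per the study's methods, reads were aligned to mm10 with Space Ranger (1.0 in the submitters' processing notes), spots over tissue were picked by hand, and Seurat (3.2.1) was used.

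The authors deposited UMI counts and gene counts per spot, with no normalization. The deposited percent values give mitochondrial, ribosomal protein and hemoglobin UMIs as a percent of a spot's UMIs, and multiplied by the UMI count the hemoglobin values were whole to within 1e-06 in 100% of spots. The deposited theta values are fractions that sum to 1 over 27 types, which the authors made with BayesPrism. Fewer types are described for the reference than the table lists. The labels' extraction text describes a single-cell kit, and the study's methods describe the Visium kit.

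Members, partner types and lists were chosen with earlier results of these data known. The cell types given with values were both endothelial types, artery, vein, smooth muscle, both myonuclei, fusing myocytes, 3 FAP types, M1 and both M2 macrophages, and the 3 types with the highest rho in each section. Patrolling monocytes, quiescent MuSCs and the UMI ranges were added after values were seen. All spots entered with equal weight, and no spot was removed. Spearman's rho, partial rank correlations given UMIs, medians and exact Clopper-Pearson intervals (95%) were computed with Python 3.11.15, numpy 2.4.6, pandas 2.3.3 and scipy 1.17.1, and the code was tested on simulated data. Alternatives were a theta minimum of 0.02, at most 10 types per spot, spots with 5000 to under 10000 UMIs, 5 groups by UMI count, UMI weights, medians, Pearson's r, rescaling without myonuclei and a centred log ratio, and, chosen after seeing the data, spots with at least 3000 UMIs. Gene-level values and spot positions were not analysed here.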

Additional observations from a re-analysis of the deposited data

Results flagged for a closer look

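Some ratios of members to other spots stood on opposite sides of 1 at 2 dpi and later. Those well away from 1 at both times are given here, which leaves out the 7 dpi ratios of UMIs (1.07) and of the ribosomal protein percent (0.824) and the ratios of genes. None of these differences between sections was tested, because each time point had 1 section. Median UMIs of members over other spots had a ratio of 0.697 at 2 dpi and 1.44 at 5 dpi, so the later ratio was 2.06 times the earlier one. The mitochondrial percent had a ratio of 0.466 at 2 dpi, against 1.46 and 1.44 at the later times, which are 3.13 and 3.08 times as large. The ribosomal protein percent had a ratio of 1.71 at 2 dpi and 0.783 at 5 dpi, or 0.459 times.

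Among the correlations with partner types that were over 0.1 in size at both times, 3 had opposite signs. The correlation of capillary theta with fusing myocytes was above 0 at 2 dpi (rho 0.30) and below 0 later, a difference of −0.425 at 5 dpi and of −0.463 at 7 dpi. For FAPs it was 0.29 at 2 dpi and −0.13 at 5 dpi, a difference of −0.422. These differences were not tested either, and the rescaled values with fusing myocytes were below 0 in all 3 sections.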

How the results depend on the processing

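No paired analysis was possible because each time point had 1 section. Ratios between sections are given as 5 dpi over 2 dpi, then 7 dpi over 2 dpi. A theta minimum of 0.02 moved the member share ratios to 0.225 and 0.336, the stem-like ones to 0.136 and 0.306, and the UMI ratio of members at 2 dpi to 0.935. At most 10 types per spot gave 0.656 and 0.767 for members, 0.769 and 0.711 for capillary spots, and 0.523 and 0.769 for stem-like spots. Spots with 5000 to under 10000 UMIs gave 0.223 for members at 5 dpi, and 0.233 and 0.260 for capillary spots. Rescaling without myonuclei moved the stem-like mean ratio at 5 dpi to 0.949. Every one of these ratios stayed under 1.

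Capillary with stem-like theta stayed above 0 throughout. Pearson's r was 0.40, 0.29 and 0.32 at 2, 5 and 7 dpi, the centred log ratio gave 0.40 at 2 dpi and 0.60 at 5 dpi, rescaling gave 0.80 at 5 dpi and 0.69 at 7 dpi, and the range of 5000 to under 10000 UMIs gave 0.61 at 7 dpi.

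For members over other spots in that range, mitochondrial ratios turned to 0.721 at 5 dpi and 0.887 at 7 dpi, ribosomal protein ratios to 1.32 and 1.13, and the hemoglobin ratio moved to 0.339 at 2 dpi and 1.21 at 5 dpi. The ratio of genes at 2 dpi was 1.27 there and 1.28 within 5 groups of UMI count, where the mitochondrial ratio at 2 dpi was 0.609 and the hemoglobin ratio 1.53. Averaged over those 5 groups the later ratios kept their direction, with 1.34 and 1.32 for the mitochondrial percent and 0.953 and 0.860 for the ribosomal protein percent. The averages thus differed in sign from the values in that range of UMIs. At 7 dpi each group had the direction of the average. At 5 dpi the shallower groups did not, with a mitochondrial percent of 12.2 in members against 19.3 in other spots of the shallowest group. The UMI ratio was not formed at matched depth, which would fix it.

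Of 18 partner correlations, 12 were above 0, against 3 after rescaling and 0 on the centred log ratio. With myonuclei included, 14 of 24 were above 0, against 6 on the centred log ratio, and rescaled values with myonuclei cannot be formed. Sign changes of correlations of at least 0.1 in size are listed first. Reversed by rescaling were capillary theta at 2 dpi with fusing myocytes (−0.10) and macrophages (−0.17), stem-like theta at 2 dpi with fusing myocytes (−0.16) and macrophages (−0.11), and stem-like theta at 7 dpi with fusing myocytes (−0.42), FAPs (−0.0089) and macrophages (−0.30). The centred log ratio reversed capillary theta at 2 dpi with myonuclei (0.57), fusing myocytes (−0.22), FAPs (−0.021) and macrophages (−0.54). It reversed stem-like theta at 2 dpi with the same partners (0.16, −0.10, −0.034 and −0.25), at 5 dpi with myonuclei (0.50), and at 7 dpi with myonuclei (0.24), fusing myocytes (−0.071), FAPs (−0.062) and macrophages (−0.20). The range of 5000 to under 10000 UMIs reversed capillary theta with fusing myocytes at 5 dpi (0.068) and 7 dpi (0.063) and with FAPs at 5 dpi (0.11). Pearson's r reversed stem-like theta with macrophages at 7 dpi (−0.0044). Correlations under 0.1 changed sign 4 times under rescaling, 3 times on the centred log ratio, 5 times in that range and 5 times with Pearson's r. Among them, stem-like theta at 5 dpi with fusing myocytes, FAPs and macrophages turned to −0.61, −0.065 and −0.36 by rescaling and to −0.30, −0.22 and −0.49 on the centred log ratio. In that range of UMIs capillary theta turned to 0.13 and 0.20 with macrophages and to −0.15 and −0.23 with myonuclei at 5 and 7 dpi, and to 0.28 with FAPs at 7 dpi. Apart from the construction of each alternative, the cause was not tested.

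With 1 section per time point, no spread between animals is known. In the shallowest spots 0.01 of all UMIs is about 10 UMIs, and a theta of 0.01 rests on fewer than that. No error of theta was analysed here.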

Other observations

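Quiescent MuSCs, the resting stem cells of muscle, were among the higher partners of the capillary type at the later times. Their rho with capillary theta was 0.32, 0.18 and 0.21 at 2, 5 and 7 dpi, which placed them as partner 20, 6 and 5 of 26. After rescaling without myonuclei it was 0.28, 0.68 and 0.62. This rise was not particular to quiescent MuSCs. Rescaled values at 5 and 7 dpi were 0.61 and 0.61 for committed myoblasts, 0.56 and 0.56 for neutrophils, and 0.56 and 0.46 for neural cells. As deposited, committed myoblasts were also close to quiescent MuSCs, with 0.16 and 0.19. Quiescent MuSC theta reached 0.01 in 39.1% of members (exact interval 33.4 to 45.0) and 19.6% of other spots at 2 dpi, in 4.58% (1.70 to 9.70) and 6.48% at 5 dpi, and in 16.7% (11.3 to 23.3) and 7.71% at 7 dpi. Members were thus above the other spots at 2 and 7 dpi and not at 5 dpi. T cell theta reached 0.01 in 48.8% of members and 11.9% of other spots at 2 dpi, 8.40% and 2.99% at 5 dpi, and 3.09% and 3.11% at 7 dpi. These fractions share the denominator and depth of the member theta.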
